A study of Homo sapiens with 24 samples.

Results

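The heat shock factor genes HSF1 (ENSG00000185122), HSF2 (ENSG00000025156) and HSF4 (ENSG00000102878) and the heat shock factor binding protein gene HSBP1 (ENSG00000230989) were followed through heat and radiation in FaDu and SAS spheroids. These 4 genes, out of 57500 with an entry in the count tables, were chosen by name for their place at the head of the heat shock response, and all 4 passed the filter for low counts in every comparison. FaDu and SAS are established human head and neck squamous carcinoma lines. They were grown for 4 days as spheroids of about 400 µm in diameter, without any other cell type. Total RNA of 3 independent experiments per group was sequenced with a directional kit, which gave 24 libraries.

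For each line there were 4 groups of 3 libraries: control spheroids without treatment, RT alone (7 Gy in FaDu, 10 Gy in SAS), HT alone (42.5 °C during 60 min), and HT + RT with the same doses. All spheroids were collected 0.5 h after treatment, so later times were not measured, and neither protein levels nor the phosphorylation of HSF1 can be read from these data. Library totals lay between 15203484 and 29452514 counts, with a median of 18378943. Levels are given as CPM, the usual counts scaled by library total, after TMM normalization over all 24 libraries. Fold changes came from edgeR's quasi-likelihood test on the counts of the groups compared, with Benjamini-Hochberg adjustment over all genes tested, and a gene was taken as changed at an adjusted p under 0.05.

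FaDu replicate 1 stood apart from the other FaDu replicates in every group. Between this replicate and the other 2, the counts differed with a chi-square per gene from 15.1 to 22.0, against 3.51 to 5.09 between replicates 2 and 3. In SAS spheroids the replicate pairs lay between 4.61 and 11.8. Results in FaDu spheroids that moved without replicate 1 are therefore given both ways.

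Both lines carried the transcripts of squamous epithelium. All 7 epithelial markers examined had a mean above 1 CPM in each line, and their summed level was between 9179 and 11150 CPM in FaDu and between 3214 and 4185 CPM in SAS libraries, with KRT17 as the most abundant (4888 and 1555 CPM on average). In FaDu every heated library (10490 CPM or more) was above every unheated one (9627 CPM or less). In SAS, HT (3793 to 4185 CPM) lay above control (3479 to 3754), and HT + RT (3751 to 3869) above RT (3214 to 3573). The part of this shift in the results of the 4 genes was not tested. Of 5 fibroblast markers, COL1A1 alone was over 1 CPM on average, at 48.1 CPM in FaDu and 12.8 CPM in SAS libraries. Of 5 leukocyte markers, CD14 alone was over 1 CPM, at 5.46 and 7.46 CPM, and PTPRC, the pan-leukocyte gene, was represented by 13 counts in all FaDu and 0 counts in all SAS libraries. Of 4 endothelial markers, 3 were over 1 CPM in FaDu and 2 in SAS: CDH5 (3.78 and 15.7 CPM), VWF (2.30 and 1.57 CPM) and, in FaDu alone, PECAM1 (1.004 and 0.249 CPM), while KDR had 6 and 0 counts.

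HSF1 is the factor that, once released from chaperones, forms trimers, binds heat shock elements and drives the transcription of chaperone genes. HSF2 binds the same kind of element, can form mixed trimers with HSF1 and is itself a short-lived protein, and HSF4 is best known from the lens of the eye. HSBP1 is a small coiled-coil protein that binds the trimerization domain of HSF1 and is described as a brake on its activity.

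The DNA element these factors bind consists of GAA units in alternating orientation. Promoter windows, from 250 bases before to 50 bases after an annotated start, were searched for 3 such units with 2 free bases between neighbors, spelled GAANNTTCNNGAA or TTCNNGAANNTTC, which together cover both strands. Of all 35116 windows in the RefSeq table for GRCh38.p14, 172 held the element (0.49%). Windows were listed for HSF2, HSF4 and HSBP1, 5 in all, and the element was found in 0 of them. The shorter form with 2 units, GAANNTTC or TTCNNGAA, is present in 13.5% of all windows and was found in 0 of these 5 as well. With only 5 windows and such shares, 0 matches carry little information, and a missing match does not show that binding is absent. The 3-unit element was also missing from the windows of the heat-induced genes HSPA1A and HSPA1B. The windows of HSF2 (chr6:122399301-122399600, plus strand) and HSBP1 (chr16:83807728-83808027, plus strand) are shown because these are the genes that changed with heat. Beside them stand the windows of the target genes HSPA6 (chr1:161524290-161524589, plus strand) and CHORDC1 (chr11:90223000-90223299, minus strand), in which capitals mark the 3-unit element.
HSF2: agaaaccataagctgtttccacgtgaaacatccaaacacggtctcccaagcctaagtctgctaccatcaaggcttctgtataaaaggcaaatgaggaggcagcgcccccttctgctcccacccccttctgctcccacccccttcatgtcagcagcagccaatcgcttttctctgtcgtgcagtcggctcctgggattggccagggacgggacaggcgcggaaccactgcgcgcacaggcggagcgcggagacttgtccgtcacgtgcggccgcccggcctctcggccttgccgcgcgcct
HSBP1: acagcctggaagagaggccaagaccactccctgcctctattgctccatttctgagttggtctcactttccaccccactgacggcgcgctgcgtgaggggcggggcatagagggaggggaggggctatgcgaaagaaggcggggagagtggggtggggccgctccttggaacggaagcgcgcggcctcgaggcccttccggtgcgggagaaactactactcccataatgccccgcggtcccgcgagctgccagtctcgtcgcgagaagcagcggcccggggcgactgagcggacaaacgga
HSPA6: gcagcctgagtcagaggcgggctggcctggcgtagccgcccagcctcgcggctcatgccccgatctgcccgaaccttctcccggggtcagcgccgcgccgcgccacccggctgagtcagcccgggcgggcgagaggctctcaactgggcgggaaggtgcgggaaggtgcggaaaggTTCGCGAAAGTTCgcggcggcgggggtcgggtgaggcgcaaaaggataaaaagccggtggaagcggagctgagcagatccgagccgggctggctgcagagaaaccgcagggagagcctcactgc
CHORDC1: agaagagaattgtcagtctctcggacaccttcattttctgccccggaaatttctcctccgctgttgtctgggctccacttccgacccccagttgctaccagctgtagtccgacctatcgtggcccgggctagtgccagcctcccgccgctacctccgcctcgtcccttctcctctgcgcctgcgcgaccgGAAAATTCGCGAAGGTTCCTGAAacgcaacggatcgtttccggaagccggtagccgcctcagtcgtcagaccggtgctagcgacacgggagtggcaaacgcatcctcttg
HSPA6 encodes a strictly inducible HSP70 and CHORDC1 a partner of HSP90. In the HSPA6 window 1 element was found, beginning 74 bases before the start, and in that of CHORDC1 3 overlapping elements, of which the first begins 60 bases before the start. CHORDC1 was picked for display after the search, because its window held the most matches; after HT its log2 fold change was 0.19 in FaDu (edgeR adjusted p = 0.57) and 0.93 in SAS (edgeR adjusted p = 0.00018). A match here means that these letters are present, and binding was not measured.

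In untreated spheroids, HSF1 was the member that differed most between the lines. FaDu controls had 58.5, 55.6 and 51.5 CPM in replicates 1, 2 and 3, and SAS controls had 186.5, 177.8 and 187.9 CPM. Every SAS library was therefore far above every FaDu library, and no treatment brought the lines together. The level in FaDu controls was 3.28-fold lower than in SAS controls, or -1.71 on the log2 scale (standard error 0.07, 95% confidence interval -1.86 to -1.56, edgeR adjusted p = 4.3e-09, lower in 3 of 3 libraries). Without replicate 1 of FaDu the value was -1.74 (edgeR adjusted p = 3.88e-11).

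HSBP1 and HSF4 went the other way. HSBP1 was measured at 126.1, 120.1 and 116.5 CPM in FaDu controls and at 92.1, 93.2 and 85.8 CPM in SAS controls, so that the lowest FaDu control lay above the highest SAS control. It was 1.36-fold higher in FaDu, or 0.45 on the log2 scale (standard error 0.06, higher in 3 of 3 libraries, edgeR adjusted p = 7.4e-05). HSF4 was measured at 7.62, 8.21 and 9.58 CPM in FaDu controls and at 3.05, 5.30 and 5.04 CPM in SAS controls. The groups again did not overlap, and HSF4 was 1.95-fold higher in FaDu (log2 fold change 0.96, standard error 0.21, edgeR adjusted p = 0.0016, higher in 3 of 3 libraries). Without replicate 1 of FaDu the values were 0.43 for HSBP1 and 1.04 for HSF4, both still past the threshold (edgeR adjusted p = 4.98e-05 and 0.000512).

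For HSF2, FaDu controls had 16.2, 17.6 and 17.8 CPM and SAS controls 17.7, 19.6 and 19.5 CPM. The highest FaDu control reached just above the lowest SAS control, and a difference was not detectable at this depth (log2 fold change -0.11, 95% confidence interval -0.33 to 0.11, edgeR adjusted p = 0.34). Thus 3 of the 4 genes differed between untreated lines, against 75.0% of the 15810 genes tested, so the share among them was that of the transcriptome. By direction, 2 were higher in FaDu and 1 was lower, against 38.6% and 36.4% of all genes. These lines differ in most transcripts, and in bulk RNA fewer cells with a transcript and less of it per cell cannot be told apart.

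The factors could be set against each other only per length, since a longer transcript collects more reads. Per kilobase of exon, mean levels in FaDu controls were 12.7 CPM for HSBP1, 10.4 for HSF1, 6.36 for HSF2 and 2.51 for HSF4. In SAS controls they were 34.7 CPM per kilobase for HSF1, 9.49 for HSBP1, 7.00 for HSF2 and 1.32 for HSF4. By this length HSF1 was thus far ahead of the others in SAS, while HSF4 came last in both lines. Exon lengths were 9525 bases for HSBP1 and 5307 for HSF1, and which transcripts the cells used was not measured. On this scale HSF1 was above 93.2% of the 19737 protein-coding genes in SAS controls and above 79.4% in FaDu controls. HSF4 was near the middle, above 50.4% and 56.2%.

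The balance between HSBP1 and HSF1 set the lines apart without overlap. Per kilobase of exon, the HSBP1 level divided by the HSF1 level ranged from 0.994 to 1.36 over the 12 FaDu libraries (median 1.22) and from 0.254 to 0.360 over the 12 SAS libraries (median 0.293). Every FaDu library thus had a higher share of HSBP1 than every SAS library. With the length of the longest mRNA in place of all exons, the medians were 0.534 and 0.128, so the order of HSBP1 and HSF1 within FaDu depended on the length used and the contrast between lines did not. HSF2 relative to HSF1, again per kilobase of exon, had a median of 0.525 in FaDu and 0.170 in SAS libraries, also without overlap (0.339 to 0.684 and 0.122 to 0.216). With the longest mRNA these medians were 0.217 and 0.070, again without overlap (0.1399 to 0.282 and 0.0502 to 0.0892).

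The genes next to HSF1 were lower in FaDu controls as well. BOP1, a ribosome biogenesis gene and the nearest neighbor, was at -1.96 on the log2 scale (edgeR adjusted p = 4.4e-09), and DGAT1, a triglyceride synthesis gene that overlaps HSF1 on the other strand, had -1.49 (edgeR adjusted p = 9.9e-08). Among the 10 protein-coding genes on each side, 17 had enough counts to be tested, 15 were lower in FaDu and 0 were higher, with a median log2 fold change of -1.34, against 0.03 over all genes tested. The 2 that did not pass were SCX (-0.27) and SLC39A4 (0.01). This window was chosen after the values had been seen. Around the other members both directions occurred: 7 lower and 7 higher of 15 tested around HSF2, 9 and 5 of 19 around HSF4, and 4 and 8 of 13 around HSBP1. The shares to set beside all these counts, over all genes tested, were 36.4% lower and 38.6% higher in FaDu.

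**Figure D1:**
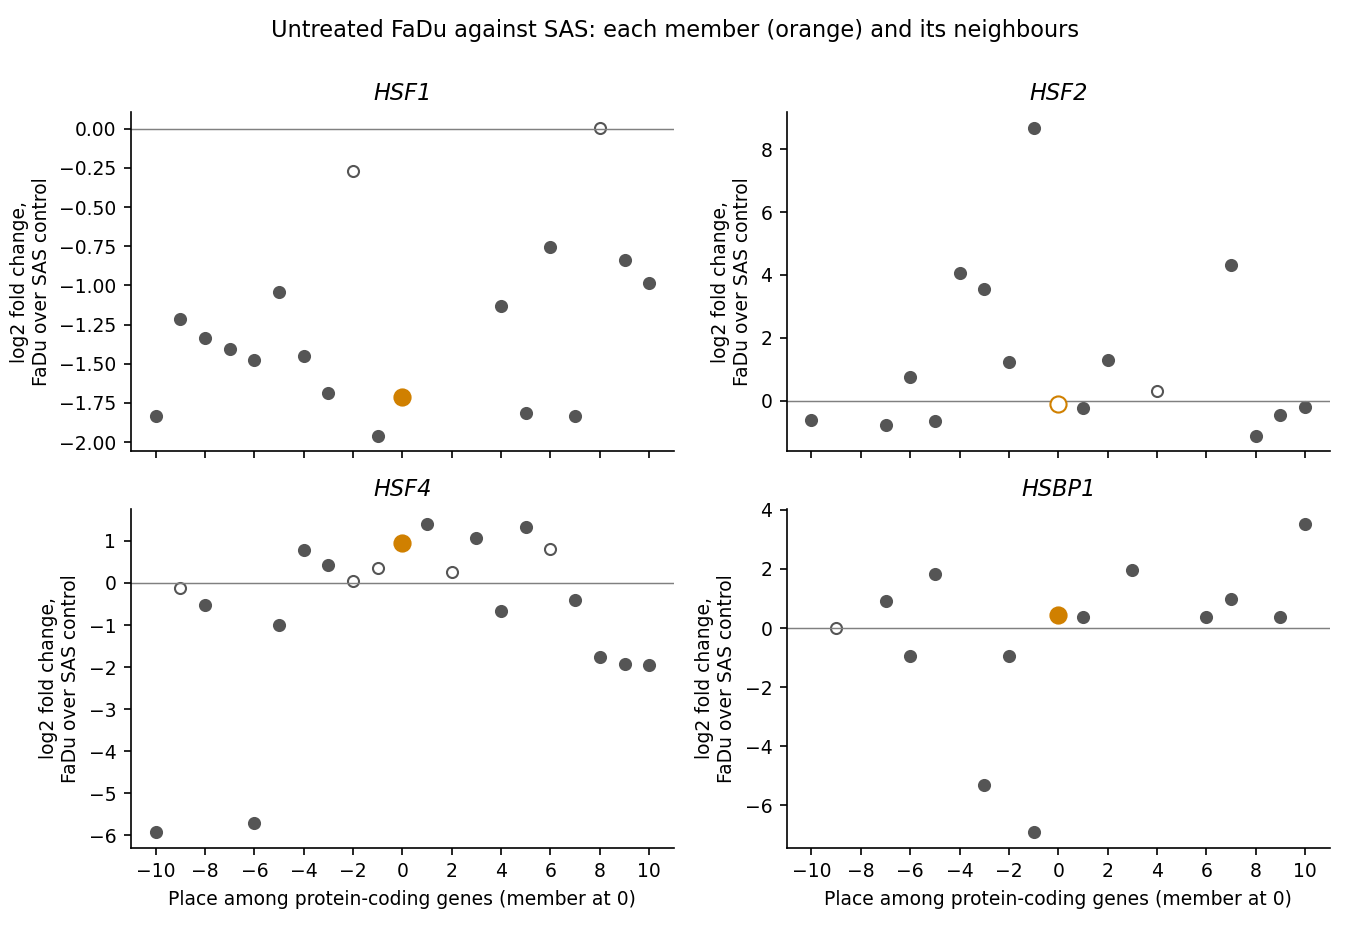
Log2 fold change of untreated FaDu over SAS spheroids (vertical axis, scales differ between panels) for each member in orange at place 0 and for the tested genes among the 10 protein-coding genes on each side (gray; filled, adjusted p under 0.05). HSF1 at -1.71 lies among neighbors of which 15 of 17 are lower in FaDu, whereas neighbors of HSF2, HSF4 and HSBP1 lie on both sides of 0. Of all genes tested, 36.4% were lower in FaDu and 38.6% higher.

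The strand setting used for counting was not given in the sources used here, so reads of genes that overlap a member could enter its count. The antisense gene AC233992.1 at HSF1 had 0 counts in all libraries together, and AC009119.1, antisense beside HSBP1, had 51. DGAT1 held 9816 counts and AC074143.1, which overlaps HSF4 on the same strand, held 320. Processed pseudogenes of HSBP1 (HSBP1P1 and HSBP1P2) were listed at 0 counts.

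The first question for treatment was whether heat moves the transcripts of the factors that respond to it. After HT, 0 of the 4 genes changed in FaDu (against 17.6% of 15879 genes tested; of the 4, HSF2 and HSBP1 had an unadjusted p under 0.05, at 0.0092 and 0.02) and 1 changed in SAS spheroids (against 23.6% of 15000; besides HSBP1, unadjusted p values were 0.047 for HSF1, 0.015 for HSF2 and 0.015 for HSF4). In irradiated spheroids, where HT + RT was compared with RT, 0 changed in FaDu (against 19.3% of 15905; HSF2 had an unadjusted p of 0.014) and 2 changed in SAS (against 27.8% of 15125). These comparisons share no library with those of HT and control and thus measure heat in other libraries. Deviations of the same replicate number correlated between RT and control (0.19 to 0.52 in FaDu, 0.16 to 0.27 in SAS), so they are not independent repeats. With 4 genes such shares are coarse, and the values of each gene follow. The counts depended on the method in both lines. With DESeq2 those of FaDu were also 0 and 0, whereas blocking by replicate number, fitting all groups at once and leaving out FaDu replicate 1 each gave 2 changed members after HT (HSF2 and HSBP1) and 1 for HT + RT against RT (HSF2). Without the filter for low counts HSF2 passed after HT as well (adjusted p = 0.0442). More genes in all were called in these settings too: after HT 5189 of 15879 with the block, 3702 of 16793 in the single fit and 4651 of 16232 without FaDu replicate 1, against 2801 of 15879, and for HT + RT against RT 4924 of 15905, 3594 of 16793 and 5268 of 16668, against 3064 of 15905. In SAS spheroids 3 members passed after HT with the block (HSF2 at an adjusted p of 0.0316, HSF4 at 0.032, and HSBP1), the same 3 without the filter (HSF2 at 0.0479, HSF4 at 0.0136), 2 with DESeq2 (HSF4 at 0.0474, and HSBP1), and 2 with all groups in a single fit (HSF2 at 0.0412, and HSBP1). Of all genes, 4413 of 15000 were called there with the block, 4264 of 30344 without the filter, 3291 of 15000 with DESeq2 and 4084 of 15833 in the single fit, against 3540 of 15000.

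**Figure D2:**
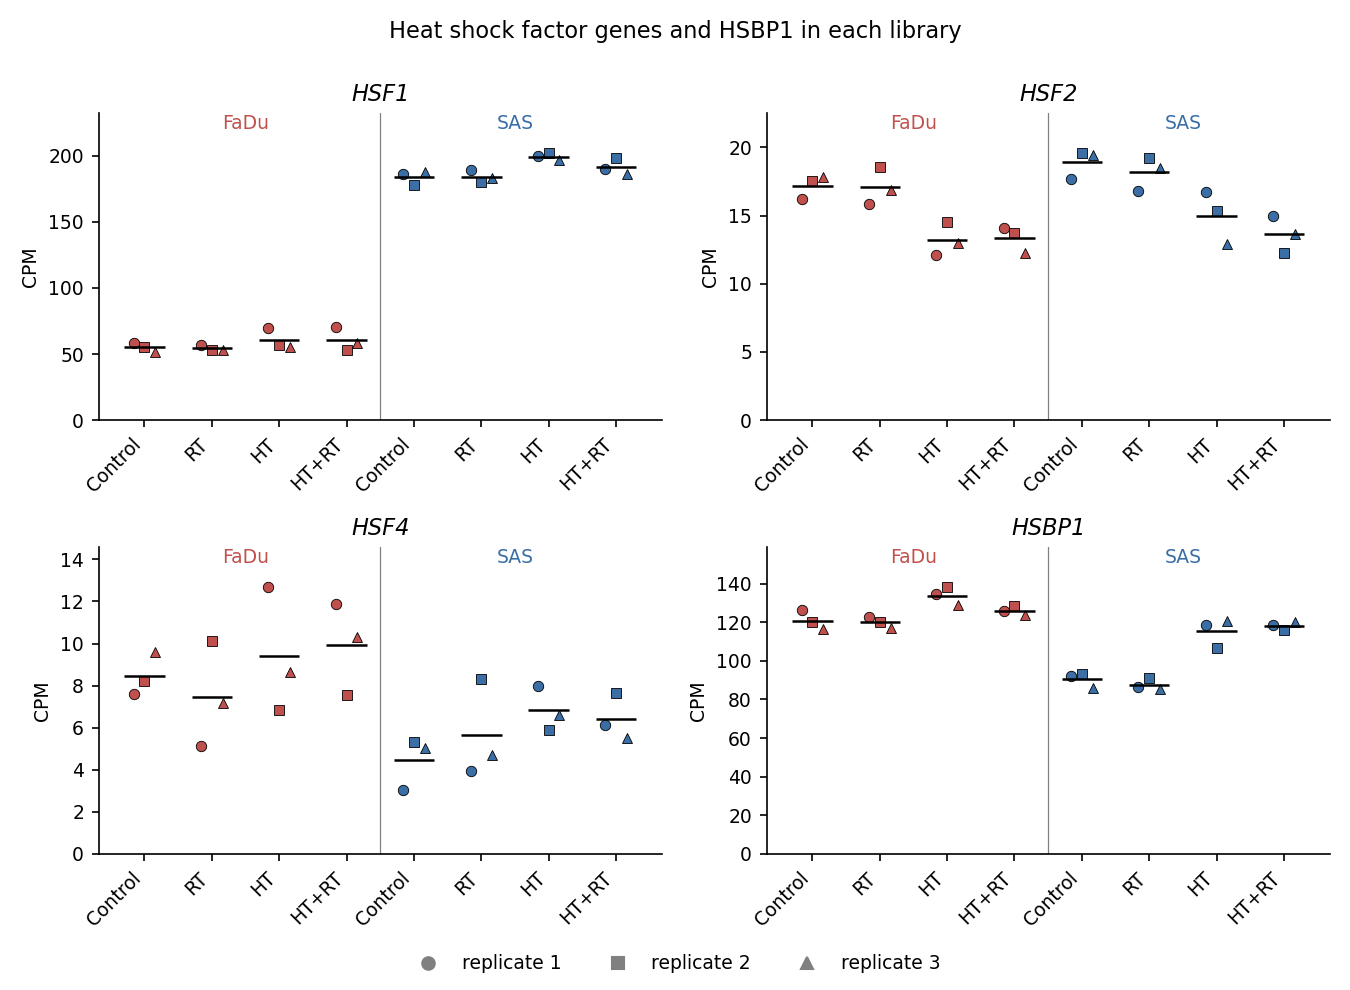
CPM of HSF1, HSF2, HSF4 and HSBP1 (vertical axes, each from 0) in every library of the 8 groups, with replicates 1, 2 and 3 as circle, square and triangle and the group mean as a line. HSF1 separates the lines (51.5 to 70.6 CPM in FaDu, 177.8 to 201.9 in SAS), HSF2 is lower in all heated groups, and HSBP1 is higher in heated SAS spheroids.

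HSF1, the master regulator, showed little movement in its transcript. In FaDu spheroids the levels were 56.8, 53.2 and 52.8 CPM after RT, 70.1, 56.7 and 55.2 CPM after HT, and 70.6, 53.4 and 58.1 CPM after HT + RT. Only replicate 1 of the heated groups left the range of the controls by a wide margin, and the groups overlapped. The log2 fold change was 0.16 after HT (95% confidence interval -0.06 to 0.37, edgeR adjusted p = 0.32, higher in 3 of 3 pairs) and 0.19 for HT + RT against RT (-0.04 to 0.42, edgeR adjusted p = 0.23, higher in 3 of 3). Without replicate 1 these values were 0.09 and 0.10, and a rise of more than 1.334-fold was outside the interval of both comparisons with all replicates.

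In SAS spheroids HSF1 was measured at 189.0, 180.4 and 183.5 CPM after RT, at 199.5, 201.9 and 196.6 CPM after HT, and at 189.9, 198.1 and 185.9 CPM after HT + RT. All 3 HT libraries were above all 3 controls, by a small margin, whereas the HT + RT libraries overlapped with both RT and control. The log2 fold change after HT was 0.12 (95% confidence interval 0.00 to 0.24, edgeR adjusted p = 0.13, higher in 3 of 3 pairs), and for HT + RT against RT it was 0.05 (-0.06 to 0.16, edgeR adjusted p = 0.51). Expressed as folds, the upper ends of these intervals were 1.18 and 1.12. A difference between lines in the HSF1 response was not detectable either (interaction 0.07, interval -0.17 to 0.31, edgeR adjusted p = 0.85, and 0.12 in irradiated spheroids, edgeR adjusted p = 0.66). The former value turned slightly negative without FaDu replicate 1.

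By mean level, the 8 groups of HSF1 ran from SAS HT (199.3 ± 2.65 CPM) over HT + RT (191.3 ± 6.22), RT (184.3 ± 4.36) and control (184.1 ± 5.47) in SAS to HT + RT (60.7 ± 8.89), HT (60.7 ± 8.18), control (55.2 ± 3.496) and RT (54.3 ± 2.19) in FaDu (SD, n = 3 each). Neighbors in this order overlapped everywhere except at the step between the lines.

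HSF2 was the member that moved downward. FaDu spheroids had 15.8, 18.5 and 16.8 CPM after RT, but 12.1, 14.6 and 12.96 CPM after HT and 14.1, 13.7 and 12.3 CPM after HT + RT. Each of the 6 heated libraries was below each of the 6 that had not been heated. The log2 fold change was -0.36 after HT (standard error 0.11, 95% confidence interval -0.61 to -0.11, lower in 3 of 3 pairs), which narrowly missed the threshold (edgeR adjusted p = 0.051). For HT + RT against RT it was -0.33 (standard error 0.11, edgeR adjusted p = 0.066, lower in 3 of 3 pairs). Blocked by replicate number, the values were -0.36 (adjusted p = 0.00911) and -0.33 (adjusted p = 0.0286), and without FaDu replicate 1 they were -0.34 (adjusted p = 0.0283) and -0.43 (adjusted p = 0.00539), all past the threshold. For HT + RT against control, which shares the controls with HT, HSF2 fell by 0.34 (edgeR adjusted p = 0.043, 1.27-fold lower), 1 of 4 members against 19.3% of all genes.

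That last call rested on single libraries. It was lost without FaDu control replicate 2 (-0.33, edgeR adjusted p = 0.121), control replicate 3 (-0.31, 0.147), HT + RT replicate 2 (-0.37, 0.0818) or HT + RT replicate 3 (-0.27, 0.181), each time with the same sign. Without RT replicate 1, the comparison of HT + RT with RT was just past the threshold instead (-0.38, edgeR adjusted p = 0.0498). With DESeq2 the value for HT + RT against control was -0.34 (adjusted p = 0.0633), and with at least 10 counts in every library it was -0.33 (edgeR adjusted p = 0.0537).

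SAS spheroids repeated the pattern in HSF2 at similar levels. The gene was measured at 16.8, 19.2 and 18.5 CPM after RT, at 16.7, 15.3 and 12.9 CPM after HT, and at 14.97, 12.3 and 13.6 CPM after HT + RT. The heated libraries were below the controls in both comparisons with control, and HT + RT was below RT throughout. HSF2 fell by 0.42 on the log2 scale in HT + RT against RT (standard error 0.11, edgeR adjusted p = 0.015, 1.34-fold lower, lower in 3 of 3 pairs) and by 0.47 against control (standard error 0.11, edgeR adjusted p = 0.0093, 1.39-fold lower, lower in 3 of 3 pairs). After HT alone the value was -0.33 (95% confidence interval -0.58 to -0.08, edgeR adjusted p = 0.06), and with the replicate block it was -0.33 with an adjusted p of 0.0316. Without SAS HT replicate 1, the highest of the heated libraries, it was -0.41 (edgeR adjusted p = 0.0444), while HT + RT against RT lost its call without RT replicate 2 (-0.38, 0.0574) or HT + RT replicate 2 (-0.35, 0.0576).

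The size of the HSF2 response did not detectably differ between the lines, with interaction values of 0.00 (interval -0.34 to 0.34, edgeR adjusted p = 1) for HT and 0.07 (interval -0.25 to 0.40, edgeR adjusted p = 0.88) in irradiated spheroids. The latter value turned slightly negative without FaDu replicate 1. In the order of mean levels the unheated groups came first, with SAS control (18.9 ± 1.05 CPM), SAS RT (18.2 ± 1.24), FaDu control (17.2 ± 0.866) and FaDu RT (17.1 ± 1.37), followed by the heated groups SAS HT (15 ± 1.91), SAS HT + RT (13.6 ± 1.36), FaDu HT + RT (13.4 ± 0.955) and FaDu HT (13.2 ± 1.25; SD, n = 3 each). Each pair of neighbors in this series overlapped, including FaDu RT and SAS HT at the step between unheated and heated spheroids.

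HSF4 was the least abundant member and the most variable one. FaDu spheroids had 5.14, 10.1 and 7.15 CPM after RT, 12.7, 6.84 and 8.64 CPM after HT, and 11.9, 7.55 and 10.3 CPM after HT + RT. Replicate 1 was the highest of both heated groups and the lowest after RT, and all FaDu groups overlapped. No call was made after HT (log2 fold change 0.16, 95% confidence interval -0.33 to 0.65, edgeR adjusted p = 0.68, higher in 1 of 3 pairs) or for HT + RT against RT (0.44, interval -0.13 to 1.02, edgeR adjusted p = 0.27, higher in 2 of 3 pairs). Without FaDu replicate 1, the value after HT turned to -0.18 (adjusted p = 0.439) and that in irradiated spheroids was 0.13 (adjusted p = 0.616).

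In SAS spheroids, HSF4 was measured at 3.95, 8.30 and 4.69 CPM after RT, at 7.98, 5.90 and 6.604 CPM after HT, and at 6.11, 7.65 and 5.49 CPM after HT + RT. All heated libraries were above all controls, but RT replicate 2 was higher than any of them. The log2 fold change after HT was 0.62 (standard error 0.22, 95% confidence interval 0.14 to 1.10, edgeR adjusted p = 0.06, higher in 3 of 3 pairs). It passed the threshold with the replicate block (0.63, adjusted p = 0.032), with DESeq2 (0.62, adjusted p = 0.0474) and without SAS control replicate 2 (0.76, edgeR adjusted p = 0.0483). For HT + RT against control, which shares those controls, it was 0.54 (edgeR adjusted p = 0.1; 0.0213 with the block). The comparison with RT, free of these controls, gave 0.18 (95% confidence interval -0.38 to 0.74, edgeR adjusted p = 0.65), so a rise with heat was not seen in both sets of libraries. An interaction was not detectable (-0.43, interval -1.13 to 0.27, edgeR adjusted p = 0.58, and 0.25, interval -0.60 to 1.094, edgeR adjusted p = 0.82). The latter value, from irradiated spheroids, turned negative without FaDu replicate 1.

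Mean levels of HSF4 fell in the order FaDu HT + RT (9.91 ± 2.18 CPM), FaDu HT (9.39 ± 2.99), FaDu control (8.47 ± 1.002), FaDu RT (7.47 ± 2.50), SAS HT (6.83 ± 1.06), SAS HT + RT (6.42 ± 1.11), SAS RT (5.65 ± 2.33) and SAS control (4.46 ± 1.24; SD, n = 3 each). Every pair of neighbors overlapped, across the step between the lines too.

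HSBP1, the binding protein, rose with heat in SAS spheroids. There it was measured at 86.6, 91.0 and 85.2 CPM after RT, at 118.5, 106.8 and 120.7 CPM after HT, and at 118.4, 116.2 and 119.9 CPM after HT + RT. Every heated library was above every unheated one, the closest being 106.8 against 93.2 CPM. After HT the rise was 1.28-fold (log2 fold change 0.36, standard error 0.07, 95% confidence interval 0.21 to 0.50, edgeR adjusted p = 0.0024, higher in 3 of 3 pairs), and for HT + RT against RT it was 1.35-fold (0.43, standard error 0.06, interval 0.31 to 0.55, edgeR adjusted p = 0.00017, higher in 3 of 3 pairs). Against control, with the same controls as for HT, HT + RT gave 0.39 (standard error 0.06, edgeR adjusted p = 0.00044). HSBP1 and HSF2 were the 2 members of 4 changed by HT + RT in SAS, in opposite directions, against 25.1% of all genes.

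The fibroblast marker list moved in the same SAS libraries. Its summed level was 1.87, 1.65 and 2.35 CPM in controls and 31.9, 17.2 and 24.9 CPM after HT, and it lay between 1.88 and 2.48 CPM after RT and between 24.8 and 25.8 CPM after HT + RT. COL1A1, a collagen gene, was the most abundant of the 5 (mean 1.32 CPM in controls and 23.9 CPM after HT, log2 fold change 4.18 after HT, edgeR adjusted p = 6.4e-07), while PDGFRB, LUM, COL1A2 and DCN had 77, 40, 29 and 2 counts in all 12 SAS libraries. In FaDu spheroids the summed level of this list was 36.1, 42.9 and 46.4 CPM in controls, 34.2, 44.6 and 47.5 CPM after RT, 50.1, 48.2 and 63.9 CPM after HT, and 44.6, 56.7 and 65.1 CPM after HT + RT. It was higher with heat in each of these pairs, but COL1A1 did not pass there (0.39 after HT and 0.43 for HT + RT against RT, edgeR adjusted p = 0.087 and 0.092). The part of this list in the HSBP1 and HSF2 results of either line was not tested.

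In FaDu spheroids the levels of HSBP1 were 122.5, 120.2 and 117.0 CPM after RT, 134.6, 138.2 and 128.7 CPM after HT, and 125.9, 128.3 and 123.8 CPM after HT + RT. HT libraries were above all others of the line, and HT + RT libraries were above RT but overlapped with control. The log2 fold change after HT was 0.17 (standard error 0.06, 95% confidence interval 0.03 to 0.30, edgeR adjusted p = 0.088, higher in 3 of 3 pairs). With the replicate block it was 0.17 with an adjusted p of 0.0187, and without FaDu replicate 1 it was 0.20 with an adjusted p of 0.0131. For HT + RT against RT it was 0.10 (interval -0.02 to 0.22, edgeR adjusted p = 0.25, higher in 3 of 3 pairs).

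Whether the lines differed in this response was tested directly. With HT alone, the FaDu effect minus the SAS effect was -0.16 (interval -0.35 to 0.04, edgeR adjusted p = 0.42), and in irradiated spheroids it was -0.35 (standard error 0.07, interval -0.51 to -0.19, edgeR adjusted p = 0.0091). HSBP1 was thus the 1 of 4 members with a heat effect that differed between lines in irradiated spheroids, against 7.59% of 17376 genes. With HT alone, 0 of 4 differed (against 5.55% of 17219, and 2966 genes at an unadjusted p under 0.05, none of them a member). In irradiated spheroids the lines also differed in dose, so line and dose cannot be told apart in that result. Without FaDu RT replicate 2 the value was -0.30 (edgeR adjusted p = 0.0509), without the filter for low counts it was also -0.30 (edgeR adjusted p = 0.115), and without FaDu replicate 1 it was -0.34 (edgeR adjusted p = 0.0145).

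The groups of HSBP1 ranked from FaDu HT (133.8 ± 4.80 CPM) over FaDu HT + RT (126.0 ± 2.25), FaDu control (120.9 ± 4.85) and FaDu RT (119.9 ± 2.76) to SAS HT + RT (118.2 ± 1.86), SAS HT (115.3 ± 7.47), SAS control (90.4 ± 3.97) and SAS RT (87.6 ± 3.03; SD, n = 3 each). Heated SAS spheroids reached the level of unheated FaDu spheroids, with which they overlapped. Only the first step of the series and the step below SAS HT were free of overlap.

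**Figure D3:**
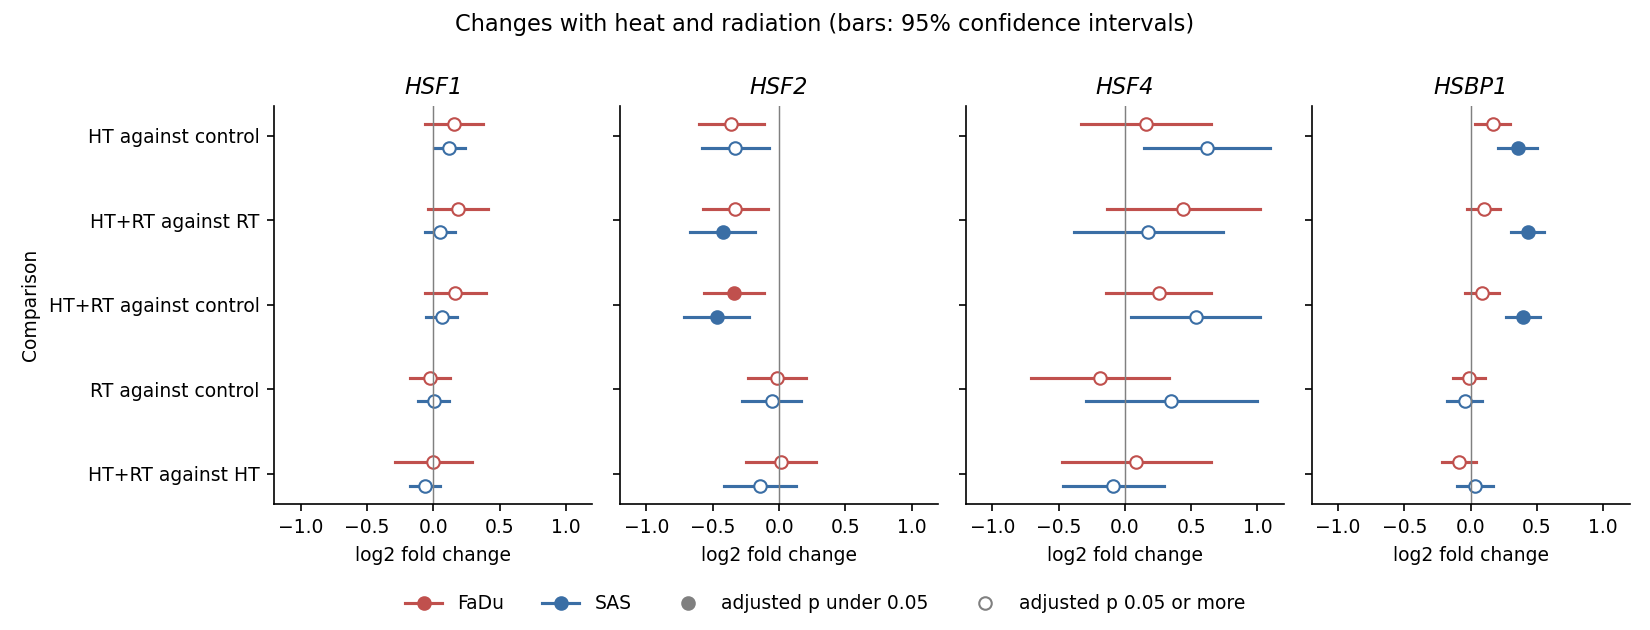
Log2 fold changes (horizontal axis) with 95% confidence intervals for each member in 5 comparisons (vertical axis) in FaDu (red) and SAS (blue) spheroids; filled points have an adjusted p under 0.05. HSF2 lies below 0 in all 6 comparisons of heated with unheated spheroids, from -0.33 to -0.47. In the same comparisons HSBP1 lies at 0.36 to 0.43 in SAS spheroids and lower in FaDu spheroids.

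Radiation left no detectable mark on these genes. Against control, RT changed 0 of the 4 members in FaDu (against 0.0322% of 15552 genes, with 791 genes at an unadjusted p under 0.05 and 67 changed by DESeq2) and 0 in SAS (against 0.0749% of 14680, with 834 and 47). Values after RT were between -0.19 (HSF4) and -0.01 (HSF2) in FaDu and between -0.06 (HSF2) and 0.35 (HSF4) in SAS. For HSF1, HSF2 and HSBP1 the 95% confidence intervals lay between 0.851 and 1.152 times the control level in FaDu and between 0.825 and 1.12 times in SAS, whereas for HSF4 they ran from 0.611 to 1.26 times and from 0.814 to 1.99 times. With the replicate block 0 of the 4 passed as well, while 312 and 288 of all genes did. Adding RT to HT changed 0 of the 4 in either line, as it changed 0 (0%) of 16145 and 0 (0%) of 15341 genes by edgeR (361 and 673 at an unadjusted p under 0.05, 7 and 37 changed by DESeq2). With the replicate block 154 and 139 of all genes were changed by adding RT to HT, and again 0 of the 4. Of the members, the value of HSBP1 in FaDu was -0.09 (interval -0.22 to 0.04, lower in 3 of 3 pairs, edgeR adjusted p = 1), and that of HSF2 in SAS was -0.14 (interval -0.42 to 0.13, edgeR adjusted p = 1). HSF1 in SAS was at -0.063 there, also lower in 3 of 3 pairs. For RT against control in SAS, HSF2 (-0.055) and HSBP1 (-0.044) were lower in 3 of 3 pairs too. No member was higher in 3 of 3 pairs with RT, with or without HT.

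Some genes followed the members closely over the 12 libraries of each line. Among 11410 protein-coding genes, the 3 most like HSF2 were the kinase gene TLK1 (Pearson r 0.941 in FaDu and 0.933 in SAS), the endosome tether gene EEA1 (0.923 and 0.925) and the transcription factor gene ELF2 (0.916 and 0.932). Those most like HSBP1 encode ribosomal proteins: RPL35A (0.904 and 0.898), RPS3 (0.907 and 0.894) and RPL37 (0.893 and 0.916). For HSF1 they were EPN1, an endocytic adaptor gene (0.914 and 0.853), CSNK2B, a casein kinase subunit gene (0.872 and 0.834), and NDUFS7, a gene of respiratory complex I (0.828 and 0.829), and for HSF4 MICALL2 (0.851 and 0.846), PABPC1L (0.844 and 0.866) and LENG8 (0.839 and 0.863). The libraries of a line share treatments and scaling, so these values describe likeness and carry no test.

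Of 7 further family and partner genes, 2 had enough counts. HSBP1L1, a gene similar in sequence to HSBP1, rose with heat in both lines. Mean levels of control and HT groups were 3.74 ± 0.249 and 6.25 ± 0.435 CPM in FaDu and 24.4 ± 1.78 and 55.5 ± 7.46 CPM in SAS (SD, n = 3 each), with no overlap in either line. The log2 fold changes were 0.76 and 1.19 (edgeR adjusted p = 0.011 and 6.2e-06), and in irradiated spheroids 0.97 and 1.23 (edgeR adjusted p = 0.0089 and 1.1e-06). Untreated FaDu spheroids had 6.36-fold less of it than SAS (log2 fold change -2.67, edgeR adjusted p = 1.2e-08), opposite to HSBP1. HSF2BP, a meiotic partner of HSF2, had a mean of 0.793 ± 0.166 CPM in FaDu and 2.31 ± 0.222 CPM in SAS controls (SD, n = 3 each) and no call with heat (-0.10 and 0.43 after HT, edgeR adjusted p = 0.9 and 0.17). HSF5 and the genes HSFX1, HSFX2, HSFX3 and HSFX4 had at most 5 counts in any group.

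The genes around the factors were read from 4 lists. Chaperones that hold HSF1 inactive were the first. Of 19, 8 rose and 0 fell after HT in FaDu and 14 rose and 0 fell in SAS, against 7.95% and 9.69% of all genes in FaDu and 12.2% and 11.4% in SAS. Their median log2 fold change was 0.10 in FaDu and 0.48 in SAS, against 0.01 and 0.00 over all genes tested. In irradiated spheroids, 9 rose and 1 fell in FaDu (against 9.37% and 9.90%) and 14 rose and 2 fell in SAS (against 14.1% and 13.8%). The highest in both lines were the inducible HSP70 genes HSPA1B and HSPA1A and the HSP40 gene DNAJB1. HSPA1B had log2 fold changes of 4.998 in FaDu and 4.68 in SAS (edgeR adjusted p = 2.6e-07 and 2.2e-11), DNAJB1 4.96 and 4.23 (1e-07 and 1.5e-11), and HSPA1A 4.80 and 4.56 (4.5e-07 and 1.5e-11). The sequences of HSPA1A and HSPA1B hardly differ, and reads of either may be counted under the other.

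Counted over both directions, enzymes that modify HSF1 or set the turnover of HSF1 and HSF2 changed about as often as genes in general. Of 30, 0 rose and 6 fell after HT in FaDu (20% changed, against 17.6% of all genes), 2 rose and 5 fell in SAS (23.3%, against 23.6%), and the medians were -0.03 and -0.03, against 0.01 and 0.00. In irradiated spheroids 5 fell in FaDu (16.7%, against 19.3%) and 6 in SAS (20%, against 27.8%), with 0 rising in either. By direction, 7.95% of all genes rose and 9.69% fell after HT in FaDu, and 12.2% and 11.4% in SAS. For irradiated spheroids these shares were 9.37% and 9.90% in FaDu and 14.1% and 13.8% in SAS. Under the replicate block more enzymes were changed, 10 and 9 after HT and 11 and 12 in irradiated spheroids (FaDu, then SAS), as were more genes in all (5189 of 15879 and 4413 of 15000 after HT, 4924 of 15905 and 5883 of 15125 in irradiated spheroids). PIAS4, a SUMO ligase, fell by 0.83 on the log2 scale in FaDu (standard error 0.14, edgeR adjusted p = 0.0041) and by 0.44 in SAS (0.08, edgeR adjusted p = 0.0023). CUL3, a scaffold of ubiquitin ligases, fell by 0.79 in FaDu (edgeR adjusted p = 7.6e-05), the ubiquitin ligase gene NEDD4 fell by 0.47 and 0.36 (edgeR adjusted p = 0.0081 and 0.0073), and the histone chaperone gene DAXX fell by 0.28 and 0.27 (edgeR adjusted p = 0.037 and 0.043). FBXW7, a substrate receptor of ubiquitin ligases, and the kinase gene GSK3B rose in SAS by log2 fold changes of 0.32 and 0.24 (edgeR adjusted p = 0.048 and 0.012). The count in SAS after HT was 4 without control replicate 1 and 3 without control replicate 2, and in irradiated spheroids it was 3 without FaDu HT + RT replicate 3, SAS RT replicate 2, SAS RT replicate 3 or SAS HT + RT replicate 3.

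Among transcription cofactors of HSF1, 15 of 16 were tested. After HT 3 fell in FaDu (20%, against 9.69% of all genes that fell and 17.6% that changed). In SAS 1 fell (6.67%, against 11.4% and 23.6%). In both lines 0 rose, against 7.95% and 12.2% of all genes. CDK9, the kinase that releases paused RNA polymerase II, fell in both lines, by 0.62 and 0.64 on the log2 scale (standard error 0.09 and 0.07, edgeR adjusted p = 0.0023 and 4.5e-05). Its cyclin gene CCNT1 fell by 0.36 and the replication protein gene RPA1 by 0.30 in FaDu (edgeR adjusted p = 0.032 and 0.01). In irradiated spheroids 1 rose and 2 fell in FaDu (20%, against 19.3%), and 1 rose and 1 fell in SAS (13.3%, against 27.8%). Of all genes there, 9.37% rose and 9.90% fell in FaDu, and 14.1% and 13.8% in SAS. With the block, 7 cofactors passed in FaDu and 4 in SAS spheroids given HT alone, and 4 passed in each line in irradiated spheroids, and the calls over all genes were more as well (5189 of 15879 and 4413 of 15000 with HT alone, 4924 of 15905 and 5883 of 15125 with HT + RT against RT). The counts also moved with single libraries: after HT there was 1 without FaDu HT replicate 3, and 2 without SAS control replicate 3 or without SAS HT replicate 1. In irradiated spheroids there was 1 without FaDu HT + RT replicate 2 or 3, and 1 without SAS RT replicate 1 or 3 or without SAS HT + RT replicate 1 or 2.

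The heat-inducible target genes of HSF1 moved most. After HT 25 of 33 rose in FaDu and 33 of 33 in SAS (against 7.95% and 12.2% of all genes), with 0 falling, and in irradiated spheroids it was 31 and 33 (against 9.37% and 14.1%). Only 31 of the 33 passed the filter in SAS RT against control, where no library was heated. The others entered the SAS heat tests through the heated libraries, so their rise was set by the filter. They remain in the counts and medians given here. Median log2 fold changes were 1.19 in FaDu and 1.92 in SAS after HT, and 1.54 and 2.22 in irradiated spheroids, against 0.01 and 0.00 over all genes in each case. This list was written with results of these data known, and 8 of its genes are also among the 19 chaperones, which is 42.1% of those and 24.2% of the targets. HSPA6 had the largest values, 13.31 and 11.36 on the log2 scale (edgeR adjusted p = 2.4e-09 and 2.2e-11), from 27 and 40 counts in all 3 controls to means of 4373 ± 549.7 and 1979 ± 402.5 CPM (SD, n = 3). HSPB8, a small heat shock protein gene, had 6.07 in SAS (edgeR adjusted p = 1.4e-09). CRYAB, another of that family, had 0 counts in SAS controls and was at least 94.3-fold higher after HT, taking 3 counts over the control group as the floor, which covers counting error only, and the list median in SAS was also 1.92 with CRYAB at that bound.

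**Figure D4:**
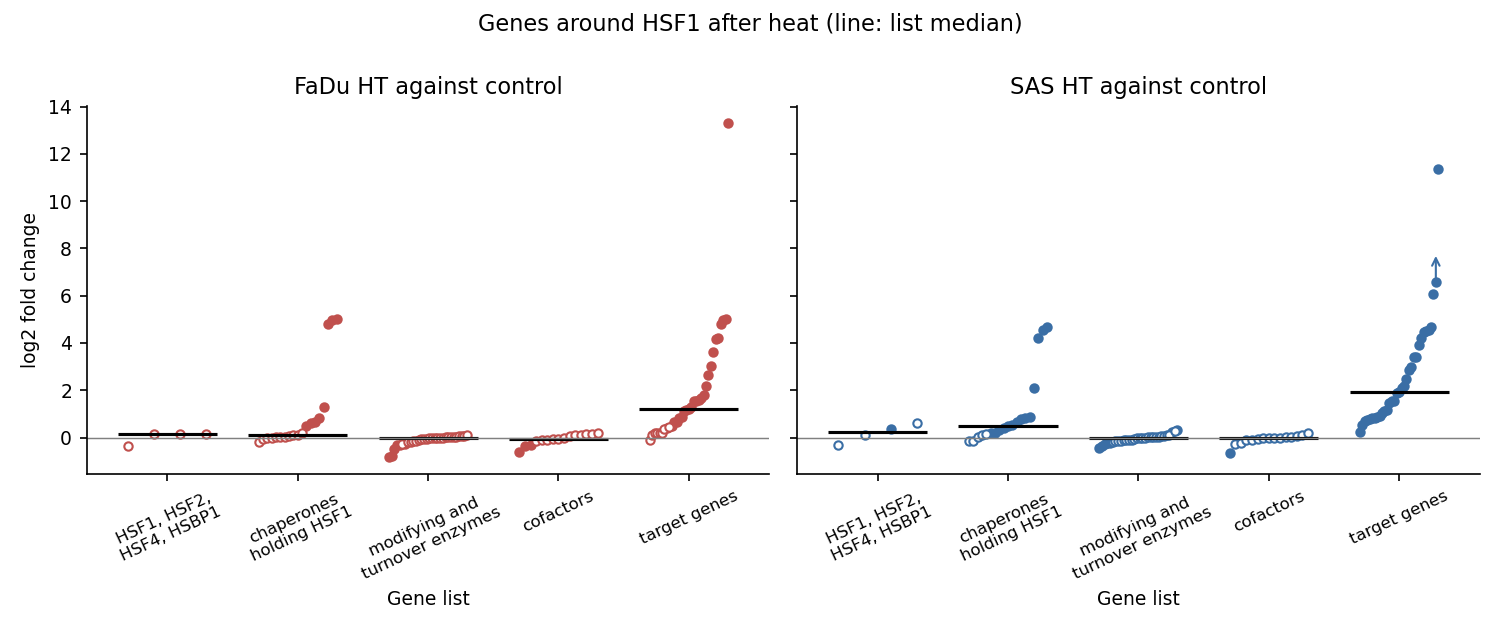
Log2 fold change after HT (vertical axis) of every tested gene of the members and of 4 lists around HSF1 (horizontal axis), sorted within each list, in FaDu (left) and SAS (right) spheroids; filled points have an adjusted p under 0.05, lines are medians, and the arrow marks CRYAB at its lower bound. The members lie near 0 while the target genes reach medians of 1.19 and 1.92.

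The lines differed in how far the targets rose. The FaDu effect minus the SAS effect had a median of -0.62 over the 33 genes with HT, and 17 differed past the threshold (51.5%, against 5.55% of all genes), 15 lower in FaDu and 2 higher. In irradiated spheroids, where the lines also differed in dose, the median was -0.52, and 22 differed (66.7%, against 7.59%), 19 lower in FaDu and 3 higher. Over all genes tested, these medians were 0.03 and -0.02, with 560 and 894 genes lower in FaDu and 396 and 424 higher. The list holds heat-inducible genes only and was written with results of these data known. Its shares therefore cannot be read as an excess over all genes. The larger rise was thus in SAS spheroids, which also had the higher HSF1 level, for 15 of 33 targets with HT and for 19 of 33 in irradiated spheroids, and a relation between these observations was not tested. By sign alone, 8 of the 33 values were above 0, that is larger in FaDu, both with HT and in irradiated spheroids. The 3 targets highest in FaDu after HT were HSPA6, HSPA1B and DNAJB1. Their log2 fold changes were 13.31, 4.998 and 4.96 there and 11.36, 4.68 and 4.23 in SAS. Of the 29 targets with promoter windows, 9 (31%) held the 3-unit element, against 0.608% of all genes with windows. Those 9 had a median log2 fold change after HT of 0.66 in FaDu and 0.93 in SAS, and the 20 without it had 1.55 and 2.66, although the largest rise of all targets, that of HSPA6, was among the 9. With 2 units, 21 targets held a match (72.4%, against 16.2% of all genes), and the medians were 1.53 and 2.48 with a match and 0.65 and 1.3 without.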

How the data were processed

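The authors' deposited counts of 57500 Ensembl genes were used for every test, and the deposited normalized counts served as signal in 1 alternative. Aligner, counting program, strand setting and annotation were not given in the sources used; the submitters' notes name bcl2fastq, DESeq2 and the mouse build mm9, although all gene ids are human. Names came from GENCODE v29 (56898 ids found, 602 not, 0.0217 percent of counts).

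Genes were filtered with filterByExpr (minimum count 10), scaled by TMM and tested with edgeR quasi-likelihood F tests (R 4.3.3, edgeR 4.0.16, limma 3.58.1, DESeq2 1.42.0) on only the groups compared, with Benjamini-Hochberg adjustment within each comparison. Changed meant an adjusted p under 0.05. Confidence intervals were the log2 fold change ± the t quantile times its standard error. They cover counting and replicate spread of these libraries only, and the floor used for CRYAB covers counting error only. Tables and figures were made with Python 3.11.15, pandas 2.3.3 and matplotlib 3.10.9. The code was tested on simulated data.

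Replicates with the same number correlated in their deviations above 0.1 in all FaDu comparisons and in the SAS comparisons with RT or HT + RT, but not throughout SAS HT against control (0.03 to 0.18), so pairing by replicate number was an alternative. Other alternatives were DESeq2, RLE scaling, no filter, a floor of 10 counts in each library, a single fit of all groups, limma on the deposited normalized counts (pseudocount 1), a fold change over 1 on the log2 scale too, element units of 2 or 4, each library left out in turn, and FaDu replicate 1 left out, which was added after seeing the data. The members and gene lists were chosen with earlier results of these data known. From the lists, up to 3 genes per direction with the largest changes after HT were named, and beside the members their nearest and overlapping genes. Promoter windows came from RefSeq on GRCh38.p14; HSF1 had no window in that table.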

Additional observations from a re-analysis of the deposited data

Results flagged for a closer look

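The heat effect on HSBP1 in irradiated spheroids, HT + RT against RT, was smaller in FaDu than in SAS spheroids. The lines also differed in radiation dose, so line and dose cannot be told apart in this comparison. The interaction was -0.35 on the log2 scale (standard error 0.07, 95% confidence interval -0.51 to -0.19, edgeR adjusted p = 0.0091). In FaDu the RT libraries had 122.5, 120.2 and 117.0 CPM and the HT + RT libraries 125.9, 128.3 and 123.8 CPM. In SAS the same groups had 86.6, 91.0 and 85.2 CPM and 118.4, 116.2 and 119.9 CPM. The call was lost without the filter for low counts (-0.30, edgeR adjusted p = 0.115) and without FaDu RT replicate 2 (-0.30, edgeR adjusted p = 0.0509). With HT alone the interaction was -0.16 and did not pass (edgeR adjusted p = 0.42).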

How the results depend on the processing

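Of 372 values of the members from other settings, 339 kept their label, 3 were weaker, 18 stronger and 12 reversed, with 0 reversed past the threshold. With each library left out in turn, 313 of 360 kept it, 7 were weaker, 3 stronger and 37 reversed, again 0 past the threshold. Counts from the gene lists are not in this tally. The cause of any difference was not tested. Leaving out FaDu replicate 1 was chosen after seeing the data.
HSF2, FaDu HT against control: no filter -0.38 (adjusted p 0.0442), 1 fit -0.36 (0.0258), block -0.36 (0.00911), without FaDu replicate 1 -0.34 (0.0283). HSBP1, FaDu HT: 1 fit 0.17 (0.0287), block 0.17 (0.0187), without FaDu replicate 1 0.20 (0.0131). HSF4, FaDu HT: without FaDu replicate 1 -0.18. HSF2, FaDu HT + RT against RT: 1 fit -0.33 (0.0341), block -0.33 (0.0286), without FaDu replicate 1 -0.43 (0.00539). HSF2, FaDu HT + RT against control: DESeq2 -0.34 (0.0633), at least 10 counts -0.33 (0.0537). FaDu HT + RT against HT: HSF1 1 fit -1e-04, without FaDu replicate 1 -0.007; HSF2 without FaDu replicate 1 -0.10. HSF4, SAS HT: DESeq2 0.62 (0.0474), no filter 0.61 (0.0136), block 0.63 (0.032). HSF2, SAS HT: no filter -0.34 (0.0479), 1 fit -0.33 (0.0412), block -0.33 (0.0316). HSF4, SAS HT + RT against control: no filter 0.52 (0.0443), block 0.54 (0.0213). Interaction with HT: HSF2 DESeq2 -0.0108, RLE -0.0109, no filter -0.0392, at least 10 counts -0.0058, 1 fit -0.0446; HSF1 without FaDu replicate 1 -0.0028. Interaction in irradiated spheroids: HSF2 and HSF4 without FaDu replicate 1 -0.0252 and -0.0928; HSBP1 no filter -0.30 (0.115).
Counts of changed genes: with a fold change over 1 as well, chaperones 4 and 5 in FaDu and 4 and 4 in SAS (HT, then HT + RT against RT), enzymes 0 and cofactors 0; with the block, enzymes 10 and 11 in FaDu and 12 in SAS HT + RT, cofactors 7 in FaDu HT, 4 in SAS HT and 4 in SAS HT + RT; cofactors in SAS HT no filter 3, 1 fit 2, and in SAS HT + RT no filter 4. Windows with 2 units: all 4737, chaperones 10, enzymes 1, cofactors 1, targets 23; with 4 units: all 12, chaperones 0, targets 2.
Lowest and highest with a library left out: HSF4 FaDu HT -0.11, 0.35; HSF2 FaDu HT + RT against RT -0.38, -0.26; HSF2 FaDu HT + RT against control -0.39, -0.27; FaDu RT HSF1 -0.0721, 0.0119, HSF2 -0.0845, 0.0358, HSF4 -0.47, 0.0108, HSBP1 -0.038, 0.0119; FaDu HT + RT against HT HSF1 -0.12, 0.11, HSF2 -0.0509, 0.0865, HSF4 -0.10, 0.36; HSF2 SAS HT -0.41, -0.23; HSF4 SAS HT 0.40, 0.76; HSF2 SAS HT + RT against RT -0.49, -0.35; HSF4 SAS HT + RT against RT -0.0199, 0.57; SAS RT HSF1 -0.0231, 0.0212, HSF2 -0.10, 0.0013, HSF4 -0.0428, 0.55; SAS HT + RT against HT HSF4 -0.24, 0.033, HSBP1 -0.021, 0.0731; interaction with HT HSF1 -0.0884, 0.11, HSF2 -0.14, 0.0343; in irradiated spheroids HSF1 -0.0081, 0.20, HSF2 -0.0115, 0.18, HSF4 -0.15, 0.56, HSBP1 -0.39, -0.29. Enzymes: FaDu HT + RT against RT 3, 7; SAS HT 3, 7; SAS HT + RT against RT 3, 6. Cofactors: FaDu HT 1, 3; FaDu HT + RT against RT 1, 3; SAS HT 1, 2; SAS HT + RT against RT 1, 3.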
